A study of Mus musculus with 36 samples.

Results

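Transcripts of 9 myelin genes, Mbp, Mog, Mag, Mobp, Cnp, Cldn11, Ermn, Opalin and Mal, were followed in mouse hippocampus across age, induction age and ribosome pulldown. The 9 genes were chosen with earlier results of these data known. They were matched by gene symbol to the count table, and all 9 were found once among its 36172 gene entries. Myelin is the multilayered membrane that oligodendrocytes wrap around axons. Its compact layers are held together by basic proteins and proteolipids, while its noncompact channels, its inner face towards the axon and its outermost layer carry their own adhesion and cytoskeletal proteins. In the hippocampus myelin lies mainly in the white matter around the formation and along axons within it, and oligodendrocytes are its only known source there.

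All mice were Cx3cr1-NuTRAP. A tamoxifen-inducible cre under Cx3cr1, which among brain cells is a microglial and macrophage gene, tags ribosomes in those cells, so that their ribosome-bound RNA can be pulled down with an antibody against the tag (translating ribosome affinity purification, TRAP). Input is polyA RNA of the whole hippocampal homogenate, set aside before the pulldown, and holds RNA of every cell type. The 29 inputs came from 10 young mice of 6 months with early induction (5 females, 5 males), 12 old mice of 22 months with early induction (7 females, 5 males) and 7 old mice of 22 months with late induction (5 females, 2 males). The 7 TRAP libraries came from those same 7 old late-induced mice. The ages at induction are not given in the sources used here. The study asked whether the age at induction affects how the model performs. No young late-induced mice and no TRAP libraries of early-induced mice were analysed here, so age and induction age cannot be told apart where old late-induced mice are set against young ones. The 36 libraries thus come from 29 mice, each input from a separate mouse in the labels, and both hippocampi of a mouse were pooled.

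Library totals ran from 12.9 M to 20.4 M estimated counts, and the 9 genes had from 101 counts (the lowest Opalin library) to 62838 counts (the highest Mbp library). Levels are given as CPM, counts scaled to the library total with TMM factors over all 36 libraries. The sample numbers in the labels run from 1 to 23 in the old early-induced, 25 to 38 in the old late-induced and 39 to 57 in the young libraries, so any order of handling that they stand for cannot be told apart from the groups. Cx3cr1 averaged 39.9 ± 5.09 CPM in the old late-induced inputs and 688.0 ± 134.0 CPM in TRAP (SD, n = 7 each). The 6 markers of hippocampal subfields were detected and summed to 464.1 to 652.2 CPM in the inputs. A few libraries stood apart in markers of neighbouring tissue: old early replicate 5 had blood markers at 2274 CPM against at most 718.9 CPM in any other input, old early replicates 2 and 10 and young replicate 6 had the highest thalamus marker sums among the inputs (311.1, 193.5 and 169.6 CPM), and choroid plexus markers ranged from 50.7 to 4210 CPM within the inputs. Their part in the results was not tested beyond leaving libraries out.

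The promoters of 8 of the 9 genes were matched by gene ID in RefSeq (GRCm38.p6), with 250 bases before the annotated start and 3 annotated starts for Mag. Mbp was left out of this step. A gene was counted if any of its windows held a match, while shares over all windows are of single windows. The windows below are shown for the genes that carry the most matches to binding motifs of oligodendrocyte transcription factors (Mag, Cnp and Mobp) and for Ermn and Mal, the genes whose age differences lay farthest from the rest. Capitals mark the letters ACAAAG, a core of sites for SOX proteins such as Sox10, or CTGGNAC, the motif of the myelin regulatory factor, on either strand.
Mag, chr7:30914923-30915172, minus strand: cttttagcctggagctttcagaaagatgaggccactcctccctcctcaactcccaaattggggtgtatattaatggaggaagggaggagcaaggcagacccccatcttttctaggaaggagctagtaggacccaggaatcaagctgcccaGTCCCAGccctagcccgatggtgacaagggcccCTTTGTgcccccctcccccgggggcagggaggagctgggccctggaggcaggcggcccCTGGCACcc
Cnp, chr11:100574689-100574938, plus strand: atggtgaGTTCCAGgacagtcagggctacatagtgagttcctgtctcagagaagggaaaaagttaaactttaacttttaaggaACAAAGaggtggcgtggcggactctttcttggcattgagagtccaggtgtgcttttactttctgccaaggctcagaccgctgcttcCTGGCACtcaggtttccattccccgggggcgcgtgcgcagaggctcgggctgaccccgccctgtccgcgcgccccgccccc
Mobp, chr9:120149492-120149741, plus strand: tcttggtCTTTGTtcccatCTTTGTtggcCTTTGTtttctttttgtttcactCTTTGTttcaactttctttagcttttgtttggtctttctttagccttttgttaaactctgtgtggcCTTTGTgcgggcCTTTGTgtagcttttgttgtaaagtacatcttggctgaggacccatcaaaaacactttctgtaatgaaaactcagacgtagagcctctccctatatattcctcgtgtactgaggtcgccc
Ermn, chr2:58052865-58053114, minus strand: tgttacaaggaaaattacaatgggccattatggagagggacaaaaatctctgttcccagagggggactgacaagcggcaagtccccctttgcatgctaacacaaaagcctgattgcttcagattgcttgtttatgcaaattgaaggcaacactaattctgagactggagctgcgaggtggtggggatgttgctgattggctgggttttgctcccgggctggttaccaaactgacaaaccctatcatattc
Mal, chr2:127656696-127656945, minus strand: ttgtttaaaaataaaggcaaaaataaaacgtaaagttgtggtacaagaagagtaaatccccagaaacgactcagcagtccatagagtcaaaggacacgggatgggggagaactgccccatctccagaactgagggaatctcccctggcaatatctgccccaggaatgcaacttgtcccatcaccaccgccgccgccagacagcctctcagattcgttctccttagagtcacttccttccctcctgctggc

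ACAAAG was present in a window of 4 of the 8 genes (Mag, Mobp, Cnp and Opalin) and in 16.5% of all 32851 windows of this length in the table. Mobp held 6 copies, all read on the opposite strand. CTGGNAC was present in 3 of the 8 (Mog, Mag and Cnp) and in 16.1% of all windows. The E-box CANNTG, the class of site for Olig2, was present in 3 of the 8 and in 66.2% of all windows, and its form CAGCTG in 0 of the 8 and 13%. No match of one motif overlapped a match of another among those capitalised. Cldn11, Ermn and Mal had no match in these letters, and a match is a description of sequence only.

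The first comparison asked how the 9 transcripts differ with age in early-induced mice, whose inputs share the induction age. In old early-induced inputs 7 of the 9 genes were higher than in young inputs and none was lower (edgeR quasi-likelihood test, adjusted p under 0.05), where 25.6% of all 14948 genes tested were called, 13% as higher and 12.6% as lower. The median log2 fold change of the 9 was 0.35, against 0.01 for all genes tested. In old late-induced inputs 8 of the 9 were higher and none was lower, where 34.5% of all genes were called, 17% as higher and 17.5% as lower, and the median of the 9 was 0.50 against 0.01. Both comparisons use the same 10 young libraries, and the 9 genes were chosen with earlier results of these data known. Mobp was called in the second comparison but not in the first, and Mal in neither. The 9 genes together summed to 2298 to 3823 CPM in young inputs (median 2866), 3007 to 4323 CPM in old early-induced inputs (median 3605) and 3243 to 5643 CPM in old late-induced inputs (median 4488). In bulk tissue, more oligodendrocytes and more RNA per oligodendrocyte cannot be told apart.

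**Figure D1:**
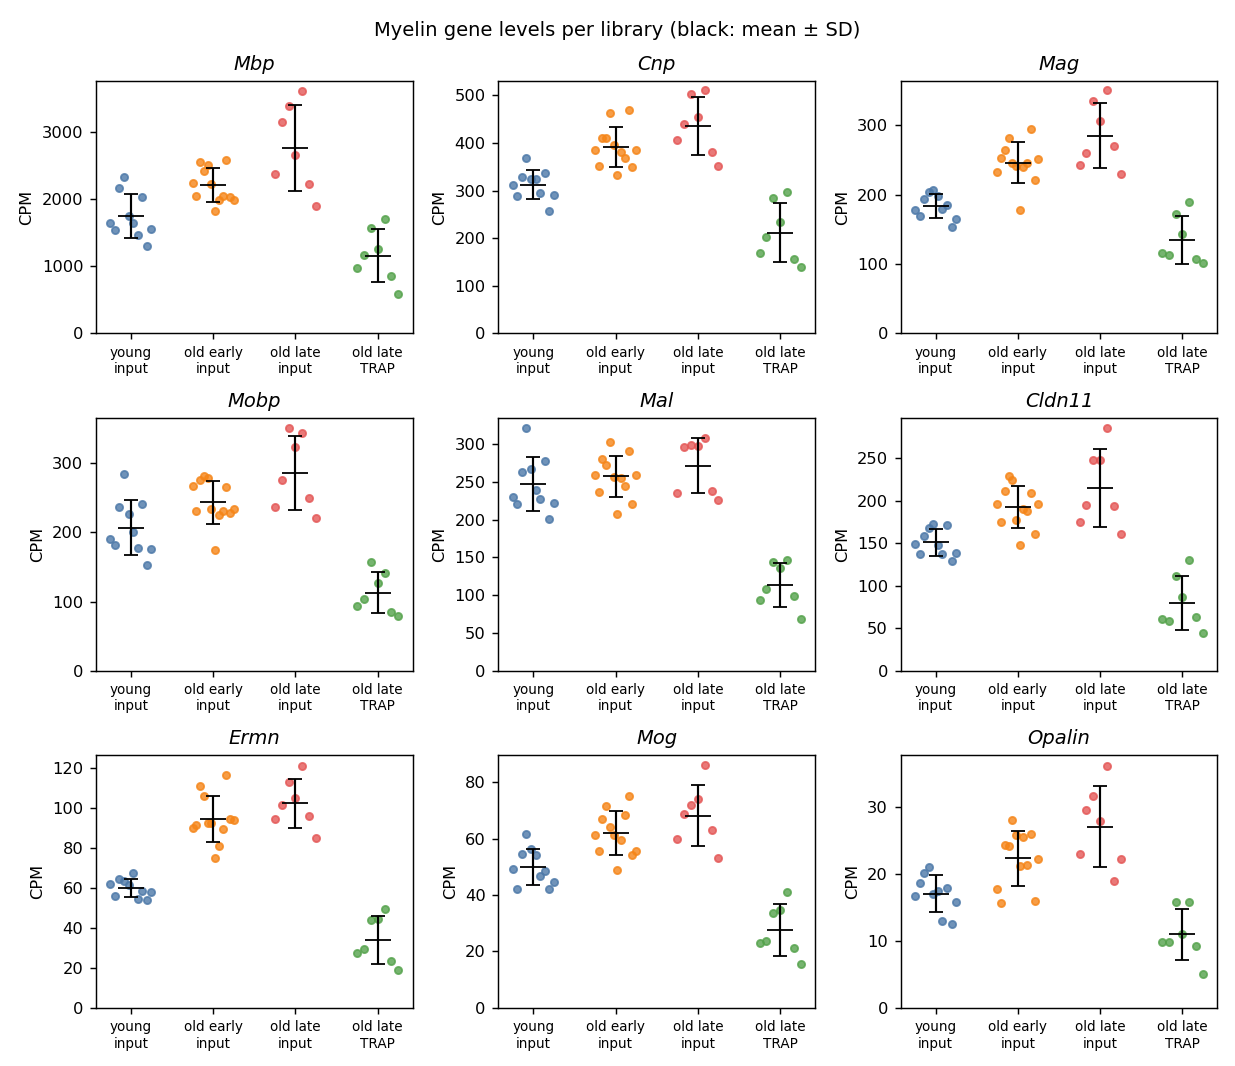
CPM of each gene (vertical axis, linear from 0) in every library of the 4 groups, with points for single libraries and black bars for mean ± SD. Ermn in all 12 old early-induced inputs lay above all 10 young inputs, Mal overlapped across the 3 input groups, and all 9 genes were lower in TRAP than in every input of the same group.

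Coordinates are those of the count table, in mm10 per the submitters' processing notes. Mbp (chr18:82475123-82585637, plus strand) encodes myelin basic protein, which draws together the cytoplasmic faces of compact myelin. It made up 58.4% of the summed CPM of the 9 genes in young inputs on average, with no correction for transcript length. Its level ran from 1296 CPM (median 1648, highest 2332) in young inputs, from 1822 CPM (median 2136, highest 2578) in old early-induced inputs and from 1897 CPM (median 2651, highest 3601) in old late-induced inputs. The ranges overlapped, with 4 of 12 old early-induced and 5 of 7 old late-induced inputs above every young one. Mbp rose by 0.35 ± 0.10 on the log2 scale (± SE, 1.28-fold, edgeR adjusted p = 0.0087) in early-induced and by 0.69 ± 0.11 (1.61-fold, edgeR adjusted p = 3.29e-05) in late-induced mice. The first call was lost without young replicates 6 and 10 and old early replicate 5 together (0.30, edgeR adjusted p = 0.0533), an exclusion chosen after seeing the data. This set is not that of the libraries named above for high markers of neighbouring tissue. It keeps old early replicates 2 and 10. It drops young replicate 10, whose thalamus and choroid plexus sums were 94.41 and 50.72 CPM. An Rpl21 pseudogene lies on the opposite strand within Mbp, and strand handling in the counting is not given in the sources used here.

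Mobp (chr9:120149742-120176091, plus strand) encodes a second small basic protein of compact central myelin. It ran from 153.4 CPM (median 196.3, highest 284.8) in young, from 174.3 CPM (median 234.2, highest 281.6) in old early-induced and from 220.3 CPM (median 276.1, highest 351.9) in old late-induced inputs. No old early-induced input exceeded the highest young one, and 3 of 7 old late-induced inputs did. The difference was 0.24 ± 0.10 in early-induced mice (edgeR adjusted p = 0.0615), and it was called with upper quartile scaling (0.26, adjusted p = 0.0449), without young replicate 4 (0.30, adjusted p = 0.0141) and without old early replicate 7 (0.28, adjusted p = 0.0274). In late-induced mice Mobp rose by 0.47 ± 0.11 (1.39-fold, edgeR adjusted p = 0.00142).

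Mal (chr2:127633226-127656695, minus strand) encodes a proteolipid of lipid rafts in compact myelin and in polarised epithelia. Its levels were 200.3 CPM at the lowest in young inputs (median 234.0, highest 321.5), 207.8 CPM in old early-induced inputs (median 257.8, highest 302.1) and 225.6 CPM in old late-induced inputs (median 295.9, highest 307.4). The 3 ranges overlapped, and no old input of either kind exceeded the highest young input, replicate 4. The differences from young were 0.07 ± 0.07 (edgeR adjusted p = 0.53) and 0.15 ± 0.09 (edgeR adjusted p = 0.173), and neither passed under any scaling, filter or tool tried or with any single library left out.

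Cldn11 (chr3:31149920-31164326, plus strand) encodes claudin 11, the protein of the tight junction strands between myelin layers. Young inputs ran from 129.3 to 172.1 CPM (median 148.5), old early-induced inputs from 147.2 to 229.4 CPM (median 193.2) and old late-induced inputs from 160.3 to 284.9 CPM (median 194.5). Of the old inputs, 10 of 12 early-induced and 6 of 7 late-induced ones lay above every young one. Cldn11 rose by 0.35 ± 0.08 (1.27-fold, edgeR adjusted p = 0.00215) and by 0.50 ± 0.09 (1.41-fold, edgeR adjusted p = 0.000152).

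Cnp (chr11:100574939-100581739, plus strand) encodes the cyclic nucleotide phosphodiesterase of noncompact myelin, which keeps cytoplasmic channels open. Young inputs ran from 257.3 to 367.4 CPM (median 317.6), old early-induced inputs from 332.7 to 468.7 CPM (median 385.5) and old late-induced inputs from 350.6 to 511.3 CPM (median 439.9). The highest young input, replicate 4, was exceeded by 9 of 12 and 6 of 7 old inputs. Cnp rose by 0.33 ± 0.07 (1.26-fold, edgeR adjusted p = 0.000334) in early-induced mice and by 0.49 ± 0.08 (1.40-fold, edgeR adjusted p = 1.14e-05) in late-induced mice.

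Ermn (chr2:58045115-58052752, minus strand) encodes ermin, an actin-binding protein of mature oligodendrocytes. It had the largest difference of the 9 genes in both age comparisons. Young inputs ran from 53.9 to 67.7 CPM (median 59.9), old early-induced inputs from 75.0 to 116.7 CPM (median 92.6) and old late-induced inputs from 85.3 to 121.4 CPM (median 101.6). All 12 old early-induced and all 7 old late-induced inputs lay above all 10 young inputs, and in early-induced mice Ermn was the only gene of the 9 whose ranges did not overlap. Ranges lay apart, with old above young, for 0.85% of all genes tested in early-induced and 2.41% in late-induced mice, where 2 of the 9 (Ermn and Mag) did so. Ermn rose by 0.66 ± 0.06 (1.58-fold, edgeR adjusted p = 1.15e-08) and by 0.77 ± 0.07 (1.70-fold, edgeR adjusted p = 3.94e-09).

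Mag (chr7:30899183-30914832, minus strand) encodes the myelin-associated glycoprotein, a sialic acid-binding adhesion protein on the inner face of myelin towards the axon. Young inputs ran from 153.5 to 206.2 CPM (median 182.2), old early-induced inputs from 178.2 to 294.4 CPM (median 246.1) and old late-induced inputs from 229.2 to 351.3 CPM (median 269.8). In the early-induced group 11 of 12 old inputs lay above every young one, the exception being the lowest old value, and in the late-induced group all 7 did. Mag rose by 0.42 ± 0.07 (1.34-fold, edgeR adjusted p = 3.84e-05) and by 0.62 ± 0.08 (1.54-fold, edgeR adjusted p = 7.27e-07).

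Mog (chr17:37010740-37023398, minus strand) encodes the myelin oligodendrocyte glycoprotein of the outermost layer, and Opalin (chr19:41063420-41077113, minus strand) a transmembrane glycoprotein of oligodendrocytes. Mog ran from 42.0 to 61.5 CPM (median 48.9) in young, from 48.7 to 75.2 CPM (median 61.2) in old early-induced and from 53.1 to 86.0 CPM (median 68.7) in old late-induced inputs. Opalin, with the fewest counts of the 9, ran from 12.6 to 21.1 CPM (median 17.2), from 15.7 to 28.1 CPM (median 23.1) and from 18.9 to 36.2 CPM (median 27.8) in the same order. Both genes overlapped between old and young, with 5 of 12 and 5 of 7 old inputs above every young one for Mog and 9 of 12 and 6 of 7 for Opalin. Mog rose by 0.31 ± 0.08 (1.24-fold, edgeR adjusted p = 0.00391) and by 0.44 ± 0.09 (1.36-fold, edgeR adjusted p = 0.000323). Opalin rose by 0.41 ± 0.11 (1.32-fold, edgeR adjusted p = 0.00864) and by 0.69 ± 0.13 (1.62-fold, edgeR adjusted p = 0.000126).

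**Figure D2:**
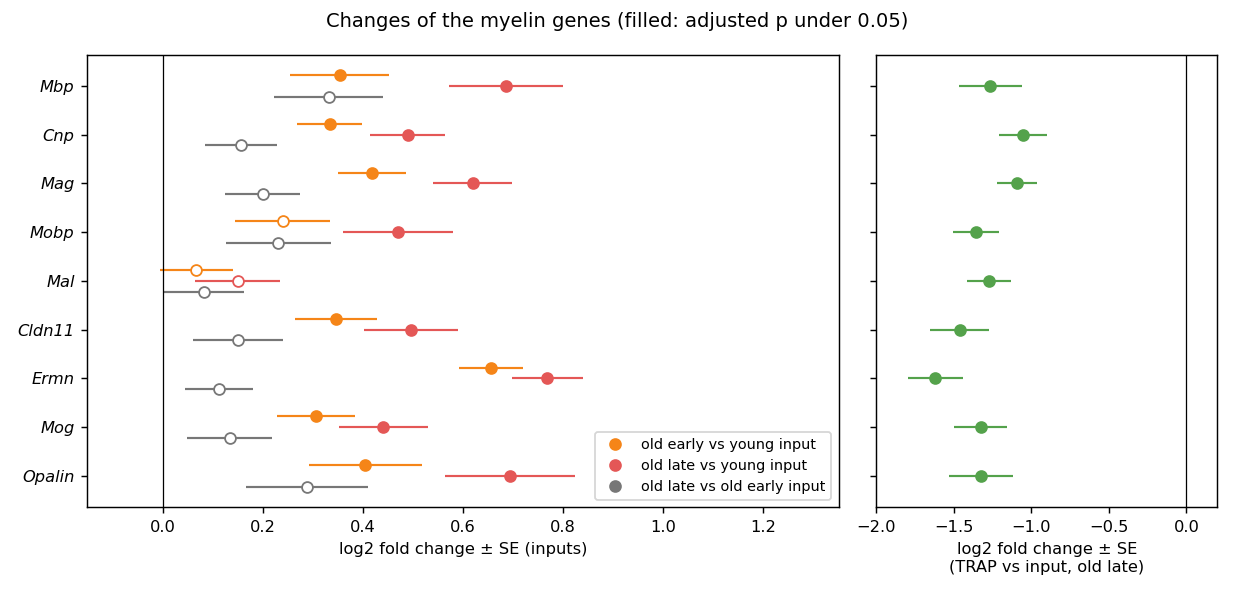
Log2 fold change ± SE of each gene from edgeR (horizontal axes) for the 3 comparisons of inputs on the left and for TRAP against input on the right, with filled points for an adjusted p under 0.05. Ermn lay farthest to the right in early-induced mice at 0.66, the open points of Mal lay at 0.07 and 0.15, and all 9 points of TRAP against input lay between -1.62 and -1.05.

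Induction age was compared at a fixed age, old late-induced against old early-induced inputs. The time since induction differs with it and cannot be told apart from it. None of the 9 genes was called, where 0.0334% of all genes tested were, 0.0268% as higher and 0.00669% as lower (5 genes, 4 of them higher, and 4 of 4 with upper quartile scaling or library size alone). All 9 estimates were positive, with a median of 0.16 against 0.00 for all genes, and the ranges of the 2 groups overlapped for each of the 9, as they did for all but 0.0201% of the genes tested. The largest estimate was that of Mbp (0.33 ± 0.11, edgeR adjusted p = 0.223). Next came Opalin (0.29 ± 0.12, edgeR adjusted p = 0.348), Mobp (0.23 ± 0.11, adjusted p = 0.39), Mag (0.20 ± 0.08, adjusted p = 0.286) and Cnp (0.16 ± 0.07, adjusted p = 0.398). These estimates share the old late-induced libraries, in which replicate 5 was the highest for 8 of the 9 genes and replicate 7 the lowest for 8. DESeq2 called 58 genes in this comparison and none of the 9.

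No difference between the sexes was called for these genes over the 29 inputs, where 0.174% of all genes tested were, 0.0468% as higher in males and 0.127% as lower (26 genes). Estimates ran from -0.12 ± 0.06 for Mag (edgeR adjusted p = 0.455) to 0.05 ± 0.09 for Mbp (edgeR adjusted p = 0.86), male minus female. Old late-induced inputs hold only 2 males, so no difference within that group was tested.

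Because the 9 genes varied together between libraries, each gene was next set against the mean log2 CPM of the other 8 in the same library. This comparison was added after seeing the data, and the scaling of a library cancels in it. Only shifts between groups are compared, since the offset of a gene depends on its length. Because each gene is set against the others, the shifts of the 9 cancel out by construction. Ermn is part of the reference of Mal, and Mal of that of Ermn, so their opposite directions are not separate results. Ermn shifted up and Mal down against the set, and the other 7 did not pass (adjusted permutation p from 0.0759 to 0.984 over 18 comparisons). Ermn lay below the mean of the others by -1.48 ± 0.13 (SD, n = 10) in young, by -1.14 ± 0.12 (SD, n = 12) in old early-induced and by -1.21 ± 0.09 (SD, n = 7) in old late-induced inputs. It was thus nearer to the others by 0.34 in early-induced mice (two-sided permutation test with 100000 resamples, p = 2e-05, adjusted p = 0.00018), with 10 of 12 old inputs above every young one. In late-induced mice the shift was 0.27 (exact two-sided permutation test, p = 0.000206, adjusted p = 0.000926), with 7 of 7 above.

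Mal lay above the mean of the others by 0.80 ± 0.07 in young inputs (SD, n = 10, from 0.71 to 0.92), by 0.49 ± 0.05 in old early-induced inputs (SD, n = 12, from 0.40 to 0.57) and by 0.37 ± 0.09 in old late-induced inputs (SD, n = 7, from 0.22 to 0.48). No old input of either kind reached the lowest young value. Its share against the other genes thus fell by 0.31 in early-induced mice (permutation test with 100000 resamples, p = 1e-05, the smallest they can give, adjusted p = 0.00018) and by 0.43 in late-induced mice (exact permutation test, p = 5.14e-05, adjusted p = 0.000309). Leaving out any single library kept the first shift of Mal between -0.32 and -0.30 and that of Ermn between 0.32 and 0.36. Among females alone the 2 shifts in early-induced mice were -0.35 for Mal and 0.36 for Ermn (exact permutation p = 0.00126 and 0.00379), and among males alone -0.27 and 0.32 (exact permutation p = 0.00794 each). A change of Mal against the set is unequal change and does not show that Mal itself stayed at one level.

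**Figure D3:**
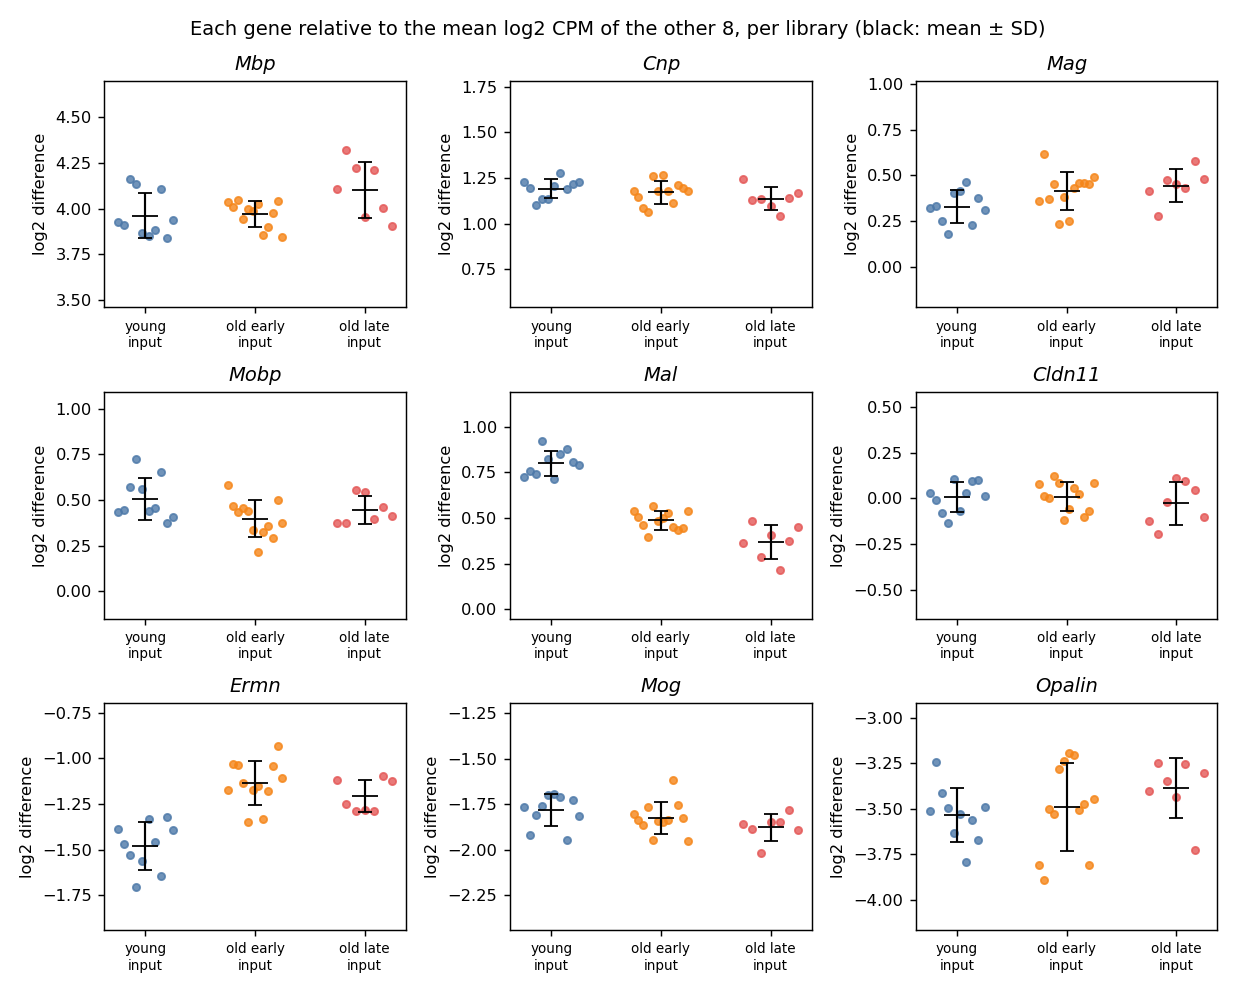
Each gene's log2 CPM minus the mean of the other 8 in the same library (vertical axis, equal span in all panels) for the 3 input groups, with points for libraries and black bars for mean ± SD. The young points of Mal, from 0.71 to 0.92, lay above all old points, and those of Ermn lay below most old points.

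Within groups the 9 transcripts varied together from mouse to mouse. Over the 36 pairs of genes the median Pearson r of log2 CPM was 0.83 among young inputs (n = 10), 0.78 among old early-induced inputs (n = 12) and 0.91 among old late-induced inputs (n = 7). With group means removed, r over the 29 inputs ran from 0.51 for Ermn and Opalin to 0.93 for Mobp and Mal. These points share a library and its scaling, and they are given as a description. Young replicate 9 was the lowest young input for all 9 genes, old early replicate 7 the lowest of its group for 8 and young replicate 4 the highest of its group for 6. Mobp and Mal, the genes with the smallest estimates with age in early-induced mice, had the highest r also among young inputs alone (0.99), while among old early-induced inputs the closest pair was Cnp and Mal (0.95) and among old late-induced inputs Mag and Cldn11 (0.98).

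Outside the set, genes most like it over the 29 inputs (group means removed, 10037 genes of at least 10 CPM searched, Pearson r with the mean of the 9) were Tspan2 (0.94), Bcas1 (0.92), Plekhb1 (0.91), Il33 (0.90), Qdpr (0.89), Tmem88b (0.88), Gltp (0.87), Galnt6 (0.85) and Prr18 (0.85). Tspan2, a tetraspanin of oligodendrocytes and the closest of all, was not called with age in early-induced mice (0.06 ± 0.07, edgeR adjusted p = 0.581) or late-induced mice (0.19 ± 0.08, edgeR adjusted p = 0.0789), although the second was called with upper quartile scaling (0.21, edgeR adjusted p = 0.0482) and when any of young replicate 4 and old late replicates 1, 6 and 7 was left out (0.22 to 0.23). The other 8 named rose in both, from 0.29 ± 0.06 for Qdpr to 0.83 ± 0.09 for Galnt6 in early-induced mice (edgeR adjusted p = 0.000338 and 1.19e-07).

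Other genes of the oligodendrocyte lineage were counted from lists chosen with earlier results of these data known. Of 33 further myelin and mature oligodendrocyte genes, 28 were higher and 1 lower in old early-induced inputs (median 0.42), and 29 and 1 in old late-induced inputs (median 0.53). Klk6, a secreted protease of mature oligodendrocytes, rose from 1.15 ± 0.55 to 5.37 ± 2.21 CPM (log2 change 2.16 ± 0.27, edgeR adjusted p = 7.42e-07), and Gjb1, a gap junction connexin, from 10.1 ± 1.64 to 20.6 ± 2.19 CPM (1.03 ± 0.10, edgeR adjusted p = 1.19e-08). The 1 gene that fell was Nfasc, which encodes neurofascin, an adhesion protein that neurons also make, named here after its value was seen (-0.26 in early-induced and -0.24 in late-induced mice).

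Of 9 oligodendrocyte transcription factors tested, 5 were higher and 1 lower in early-induced mice, led by Nkx6-2 (0.80 ± 0.08, edgeR adjusted p = 4.02e-08) and Sox10 (0.54 ± 0.08, edgeR adjusted p = 1.17e-05), a master regulator of myelin genes. Zfp488 was the 1 that fell (-0.38), named after its value was seen. Myrf, Cers2 and Map2 are listed under older symbols at 0 in every library and were not tested. Of 6 enzymes of myelin lipids tested, 4 were higher and none lower, led by Aspa (0.69 ± 0.09, edgeR adjusted p = 1.24e-06), which frees acetate for lipid synthesis, and Ugt8a (0.49 ± 0.08, edgeR adjusted p = 6.37e-05), which makes galactosylceramide. Of 12 cholesterol synthesis enzymes 10 were higher and none lower (median 0.31), led by Fdft1, squalene synthase, at 0.38 ± 0.05 (edgeR adjusted p = 3.86e-07).

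Genes of earlier lineage stages were counted in the same way, and no difference between lists was tested. Of 7 precursor genes 2 were higher and 1 lower in early-induced mice (median 0.01), where 13% and 12.6% of all genes were. Vcan, a proteoglycan, fell from 14.3 ± 1.55 to 11.4 ± 2.41 CPM (-0.36 ± 0.09, edgeR adjusted p = 0.00281) and Cspg4 (NG2) rose by 0.21 ± 0.07 (edgeR adjusted p = 0.0228), and both calls were lost among females alone (-0.16 and 0.28, edgeR adjusted p = 0.413 and 0.0525). That of Cspg4 was also lost without young replicate 5 or 8 (0.17 and 0.19, edgeR adjusted p = 0.051 and 0.054). Of 6 genes of newly formed oligodendrocytes 1 was higher and 3 lower (median -0.17). Gpr17, a receptor of differentiating oligodendrocytes, fell from 52.8 ± 4.47 to 29.9 ± 4.36 CPM (-0.83 ± 0.07, edgeR adjusted p = 2.4e-09), while Enpp6 rose by 0.53 ± 0.13 (edgeR adjusted p = 0.00265, not called among females alone, adjusted p = 0.0954). In late-induced mice the counts were 6 higher and 1 lower of 9 transcription factors, 5 and 0 of 6 lipid enzymes, 10 and 0 of 12 cholesterol enzymes, 2 and 1 of 7 precursor genes and 1 and 3 of 6 newly formed genes. Of the 5 lipid enzymes, Elovl7, a fatty acid elongase (0.63 ± 0.24, edgeR adjusted p = 0.0441), lost its call in 12 of 29 fits with a single library left out, to an adjusted p of at most 0.115. These were the fits without old late replicates 1, 2, 5 and 6, young replicates 3, 4, 7, 9 and 10 and old early replicates 3, 4 and 11, each alone.

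Markers of other cells were counted in the same age comparisons. Of all genes tested, 13% were called as higher and 12.6% as lower in early-induced mice. In late-induced mice these shares were 17% and 17.5%. Of 12 microglial markers 11 were higher in early-induced and 12 in late-induced mice, and their summed level ran from 451.0 to 527.6 CPM in young, from 597.9 to 724.1 CPM in old early-induced and from 639.7 to 944.4 CPM in old late-induced inputs. Of 10 astrocyte markers 5 were higher in either comparison (sums from 3873 to 4283, 4200 to 5056 and 4422 to 5335 CPM in the same order). Of 9 neuronal markers tested 1 was higher in the first and 2 were lower in the second comparison, with median log2 changes of -0.025 and -0.032. Neuronal sums ran from 7220 to 7929, 6810 to 8153 and 6958 to 7739 CPM. Of 4 blood markers 2 were higher in early-induced and 4 in late-induced mice (sums from 143.0 to 345.7, 130.1 to 2274 and 274.5 to 718.9 CPM). In late-induced mice all 4 stayed called with each library left out in turn. In early-induced mice 0 to 4 were called with single libraries left out. No blood marker was called there without old early replicate 3, 5 or 8, each alone. The same held without young replicate 1, 2, 3, 4, 8, 9 or 10, each alone. Of 6 markers of hippocampal subfields none was higher, 1 was lower in the first comparison (Prox1) and 2 were lower in the second (Prox1 and Fibcd1), named after their values were seen (sums from 567.9 to 652.2, 464.1 to 643.9 and 502.0 to 566.4 CPM). The first call of Prox1 was lost without old early replicate 1 or young replicate 3, each alone, and without young replicates 6 and 10 and old early replicate 5 together. Their part in the differences of the 9 genes was not tested. Markers of Schwann cells, which myelinate peripheral nerve, summed to 63.4 to 86.1 CPM in the inputs, and only 1 of the 7 averaged at least 10 CPM. Of 5 tested, 1 was higher and 1 lower in early-induced mice, and 1 was higher and 2 lower in late-induced mice. The higher gene was Egr2 (1.90 and 2.07 on the log2 scale), named after its value was seen. With group means removed, the median r of list genes with the 9 was 0.72 for the 30 further myelin genes above the level filter, 0.34 for microglial, 0.31 for astrocyte, 0.05 for thalamus and -0.25 for choroid plexus markers, as a description. For the other lineage lists the median r was 0.42 for transcription factors, 0.37 for lipid enzymes, 0.29 for precursor and 0.23 for newly formed genes. Cholesterol enzymes had a median r of -0.06, from -0.45 to 0.35.

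**Figure D4:**
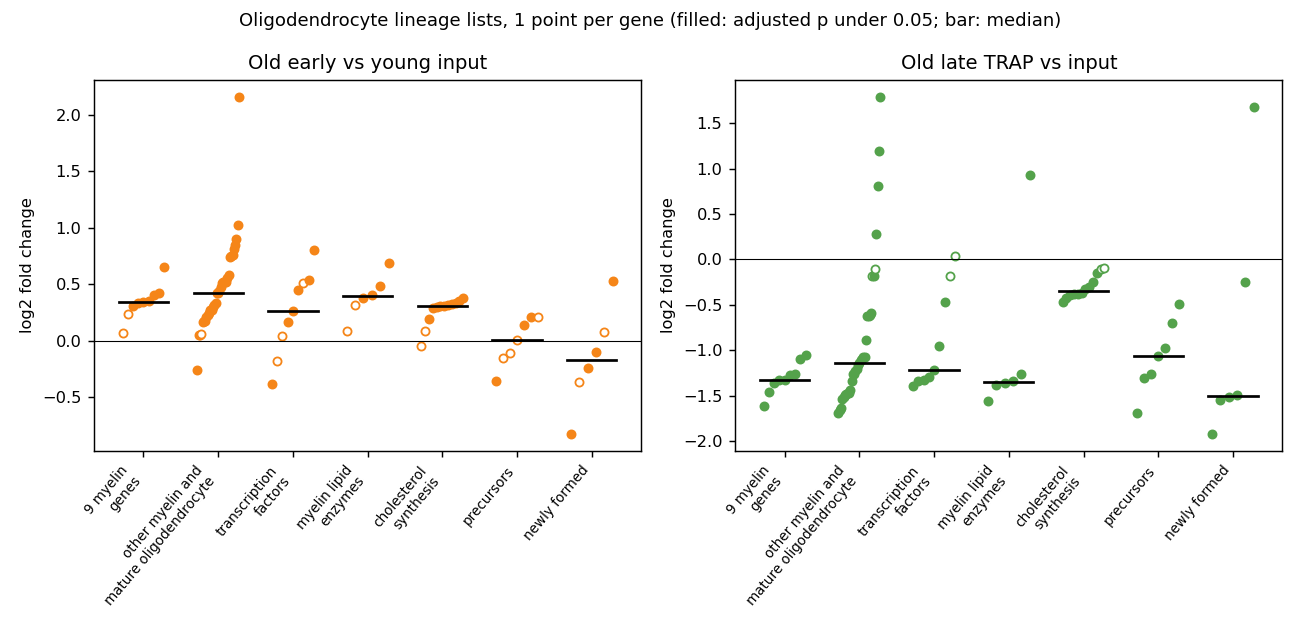
Log2 fold change (vertical axis) of every tested gene of the oligodendrocyte lineage lists, 1 point per gene, in old early-induced against young inputs on the left and TRAP against input on the right, with filled points for an edgeR adjusted p under 0.05 and bars for medians. The myelin, lipid and cholesterol lists lay mostly above 0 with age, while the precursor and newly formed lists had medians of 0.01 and -0.17.

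The pulldown was then set against input in the 7 old late-induced mice, in a fit that does not pair the libraries of a mouse. A fit with the animal as a block is given for the 9 genes in the last section. All 9 genes were lower in TRAP, where 59.2% of all 14596 genes tested were called, 28.8% as lower and 30.4% as higher, and the median of the 9 was -1.33 against -0.02 for all genes. The 2 groups did not overlap for any of the 9, while TRAP lay below input without overlap for 10.5% of all genes tested. Ermn had the largest decrease, from inputs of 85.3 to 121.4 CPM to TRAP libraries of 18.7 to 49.6 CPM (-1.62 ± 0.18, 0.326 of input, edgeR adjusted p = 5.6e-07). Cnp had the smallest, from 350.6 to 511.3 CPM in input to 138.8 to 298.0 CPM in TRAP (-1.05 ± 0.15, 0.482 of input, edgeR adjusted p = 1.55e-05).

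Mbp stood at 590.2 to 1708 CPM (median 1163) in TRAP against 1897 to 3601 CPM in input, 0.416 of input by the fit (-1.26 ± 0.20, edgeR adjusted p = 4.84e-05). TRAP levels of Mag were 100.9 to 189.9 CPM (median 116.0) and those of Mobp 79.3 to 157.4 CPM (median 103.9). Mal ran from 68.7 to 146.1 CPM (median 107.6) and Cldn11 from 44.8 to 130.4 CPM (median 63.1). Mog had 15.4 to 41.1 CPM (median 23.7) and Opalin 5.10 to 15.9 CPM (median 9.88) in TRAP. The fitted ratios of these 6 genes lay between 0.364 for Cldn11 and 0.469 for Mag (edgeR adjusted p from 8.81e-07 for Mal to 3.19e-05 for Opalin among all but Mobp, which had 5.44e-07).

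CPM values are shares of a library, so the ratios depend on the scaling. With upper quartile scaling the median of all genes was -0.17 and that of the 9 was -1.48, and with library size alone they were -0.13 and -1.44. The share of called genes that were higher in TRAP was 51.4% with TMM, 34% with upper quartile scaling and 38.3% with library size alone. Each of the 9 was lower under every one of these settings.

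Within mice, the log2 ratio of TRAP to input was negative for all 9 genes in 7 of 7 animals. Averaged over animals, the genes ran in the order Ermn (-1.66 ± 0.38, SD, n = 7), Cldn11 (-1.50 ± 0.27), Mobp (-1.37 ± 0.13), Mog (-1.36 ± 0.28), Opalin (-1.35 ± 0.39), Mbp (-1.30 ± 0.23), Mal (-1.29 ± 0.24), Mag (-1.10 ± 0.15) and Cnp (-1.08 ± 0.23). Neighbours in this order lay from 0.01 (Mbp and Mal) to 0.19 (Mal and Mag) apart, and each of these 8 differences was smaller than its SD over the 7 animals. They are given as a description, since the order comes from the same values. The ends of the order were 0.58 ± 0.19 apart, with Ermn below Cnp in 7 of 7 animals, as a description since the pair was picked by its rank.

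The ratio also varied between animals. Averaged over the 9 genes, it was lowest in replicate 7 (-1.70, 0.308 of input) and highest in replicate 3 (-1.08, 0.473 of input), with the other 5 animals between 0.360 and 0.471 of input. Replicate 7 had the lowest TRAP level for all 9 genes and the lowest input level for 8, and replicate 5 the highest TRAP level for 7 and the highest input level for 8. Across the 7 animals the TRAP level followed the input level of the same mouse, with Pearson r from 0.89 for Mal to 0.99 for Cnp in 8 of the 9 genes (exact permutation p from 0.0002 to 0.0044, unadjusted, and Spearman rho from 0.86 to 1.0 with exact permutation p from 0.0004 to 0.0238). Over all 14596 genes tested the median r was 0.32, and 12.4% had a positive r with an unadjusted p under 0.05. With p-values adjusted over all these genes, none passed, and those of the 9 ran from 0.109 for Cnp to 0.394 for Opalin (exact permutation tests). The 9 genes varied together among these inputs, so their correlations are not separate observations. Without the 2 animals farthest from the median input, r was 0.78 to 0.99 for those 8 genes. Opalin had r = 0.72 (exact permutation p = 0.0567) and rho = 0.82 (exact permutation p = 0.0341), and r = 0.80 without the 2 farthest. The 7 animals include only 2 males, too few for a value within each sex.

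**Figure D5:**
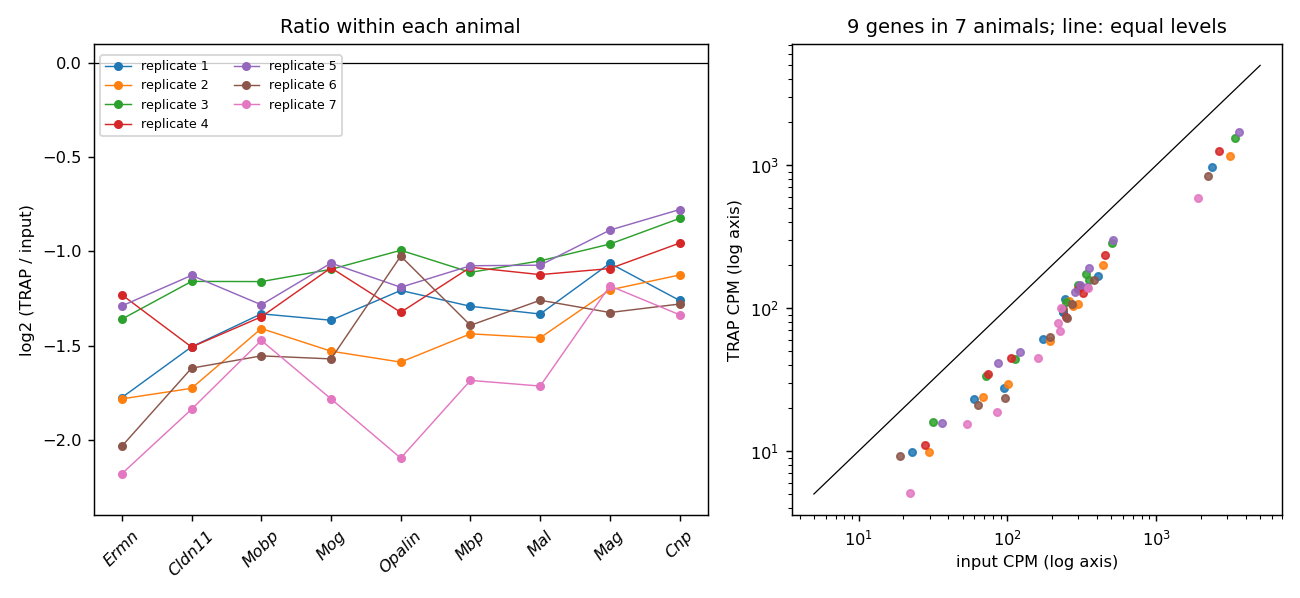
Left, log2 ratio of TRAP to input (vertical axis) of each gene in each of 7 animals, joined by lines per animal and ordered by the mean. Right, TRAP against input CPM of all 9 genes in 7 animals on log axes with a line of equal levels, below which every point lies. The line of replicate 7 was the lowest for 7 of the 9 genes, and ratios ran from -2.18 to -0.78.

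Most other lineage genes were lower in the pulldown too. Of the 33 further myelin genes 27 were lower and 4 higher in TRAP (median -1.14), of 9 transcription factors 7 were lower (median -1.22), of 6 lipid enzymes 5 were lower and 1 higher (median -1.35), and all 7 precursor genes were lower (median -1.06). Of 6 genes of newly formed oligodendrocytes 5 were lower (median -1.51), and Itpr2, a calcium release channel named after its value was seen, was higher (1.68 ± 0.09, edgeR adjusted p = 8.16e-11). The cholesterol enzymes, which most cells make, were lower for 10 of 12 (median -0.35). Pdgfra, the growth factor receptor of precursors, fell by 1.70 ± 0.13 on the log2 scale (edgeR adjusted p = 9.3e-09). The 4 further myelin genes that were higher, named after their values were seen except Pmp22, were Pmp22 (1.79 ± 0.12, edgeR adjusted p = 6.01e-10), Evi2a (1.19), Trf (0.81) and Sirt2 (0.28). Gltp, which followed the 9 genes among inputs, was likewise higher in TRAP (1.34 ± 0.12, edgeR adjusted p = 3.04e-08).

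Microglial markers were higher in TRAP for 12 of 12 (median 4.28), with sums of 11670 to 18650 CPM against 639.7 to 944.4 CPM in input, and endothelial markers for 8 of 8 (median 1.15). Astrocyte markers were lower for 9 of 10 (median -0.55) and neuronal markers for 4 of 9 (median -0.14), while blood markers were lower for 4 of 4 (median -2.32) and choroid plexus markers for 6 of 8 (median -1.95). Their part in the TRAP levels of the 9 genes was not tested.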

How the data were processed

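Values were estimated counts, deposited as 1 gene table with a raw column for each of 36 hippocampal libraries per the file headers (77.4% of nonzero values were not whole). The build mm10 and the tool DESeq2 are named per the submitters' processing notes, and aligner, counter and strand handling are not given in the sources used here. Counts were rounded and tested with edgeR 4.0.16 in R 4.3.3 (filterByExpr with a minimum count of 10, TMM, glmQLFit, glmQLFTest, Benjamini-Hochberg over all genes, called under 0.05). The 29 inputs were fitted together with group and sex, and the 14 libraries of the old late-induced mice with fraction and sex. All 9 genes passed the filter. CPM used TMM factors over the 36 libraries, and log2 CPM a prior count of 2. SE came from the F statistic. Permutation tests used numpy 2.4.6 and ranks scipy 1.17.1.

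TRAP and input were paired by the animal number in the labels, and the deviations of an animal's 2 libraries correlated at 0.308 to 0.47 against a median of -0.086 between animals. Named genes were the 9 members, the 2 largest called changes of each lineage list, the 10 genes most like the set and Cx3cr1. A few genes that this rule names are not reported here. The members, the 150 list genes (149 matched, 6 of them by gene ID) and 6 hippocampal markers added later were chosen with earlier results of these data known. A sign-flip test between genes neighbouring in the TRAP order was run but is not used, since the order comes from the same values. Alternatives were other scalings, filters, covariates and sample sets, DESeq2 1.42.0, limma voom (3.58.1) and leaving out each library. On simulated data at a log2 change of 0.5, 75% of changed genes were recovered in the early-induced age comparison (14848 genes) and 60% in TRAP against input (14546 genes). At a change of 1 these were 96.9% and 85%, and 8.15% and 4.61% of calls were false. The simulations changed 97 to 100 genes at each size and drew genes independently. Far more genes were called in the data, and genes varied together there, so these shares may not carry over.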

Additional observations from a re-analysis of the deposited data

How the results depend on the processing

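The 7 higher genes of early-induced mice were 8 with upper quartile scaling, 6 without young replicates 6 and 10 and old early replicate 5 together, an exclusion chosen after seeing the data, and 7 to 8 with single libraries left out. The 8 higher genes of late-induced mice stayed at 8, and the 9 lower genes of TRAP at 9, in every setting run. With the animal as a replicate block TRAP against input called 9330 genes and all 9 as lower, from -1.66 for Ermn to -1.09 for Cnp, and no call of the 9 changed under that pairing. No called result of the 9 reversed. The uncalled sex estimates of 3 genes changed sign with single libraries left out. They ran from -0.084 to 0.001 for Mobp, -0.038 to 0.009 for Cnp and -0.043 to 0.021 for Mal.

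Counts over all genes moved more. With females only, 1198 genes were called in early-induced (3826 with both sexes) and 2787 in late-induced mice (5151). For induction age the 5 genes called became 58 with DESeq2, 0 with only the 2 groups compared, 182 with females only and 110 without the 3 libraries above, and 0 to 164 with single libraries left out (164 when old early replicate 5 and 76 when replicate 2 of that group was left out). For sex the 26 genes became 12 with a mean of at least 10 CPM, 63 with DESeq2, 12 with early-induced inputs only and 17 to 32 with single libraries left out. None of the 9 was called in either comparison under these settings, and the causes were not tested. The lowest count of any of the 9 genes in a library was 101, and how much counting error adds to the spread between mice was not separated.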
